A study of Mus musculus with 18 samples.

Results

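CHR, the nonlesional skin of chronically UVR-irradiated Hairless mice, was profiled by small RNA sequencing in 6 libraries, 1 from each of 6 mice, numbered 2, 3, 7, 8, 9 and 10. The microRNAs (miRNAs) described here were all those above the lowest deposited value, 3.322 on the log2 scale, in at least 3 of these 6 libraries. They numbered 282 of the 1251 entries of the table, and the 6 libraries were 6 of the 18 in the series. All 6 mice were female SKH-1E littermates of an outbred strain without a working Hairless gene, all received the same long course of solar simulator UVR, and all bore papillomas and cuSCC from which the other libraries were made. The CHR itself showed elastosis, fibrosis and chronic inflammation on histology, as the study describes it, and the labels give neither age nor dose. No library of unexposed skin was used here, so what irradiation changed cannot be told apart from what Hairless skin holds without it.

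A miRNA is cut from a hairpin in a longer transcript, first by Drosha in the nucleus and then by Dicer in the cytoplasm, which leaves a short duplex of the 5p and the 3p arm. Usually 1 arm of the duplex is kept in an Argonaute protein and the other is degraded. The kept arm finds its target mRNAs mainly through its seed, bases 2 to 8 from the 5′ end, so miRNAs with the same seed form a family with overlapping targets. In skin, miR-203 and miR-205 are known for keratinocyte differentiation and epidermal stem cells, the miR-200 family for epithelial identity, and miR-199a and miR-214 for mesenchyme.

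The deposited levels were log2 values that had been quantile normalized, and an entry at 3.32 was taken as undetected. Detection differed between the libraries, from 200 entries above that value in mouse 7 to 328 in mouse 10, and the lowest detected value ran from 3.39 in mouse 10 to 5.77 in mouse 7. A low miRNA was therefore listed as undetected sooner in mouse 7 than in the others, and levels below 5.77 could not be compared there. The read total of each library was not used, so the counting error of a level is unknown. How evenly different sequences were captured was not measured either, so levels of different miRNAs need not rank as their amounts. Of the members, 198 were detected in all 6 libraries, 28 in 5, 29 in 4 and 27 in 3, while 890 entries were detected in none. Just inside the limit, miR-702-3p averaged 4.43, miR-129-2-3p 4.31, miR-3470b 4.29, miR-668-3p 4.16 and miR-3068-3p 4.14 with detection in 3 libraries, and just outside it, miR-5109 averaged 4.33 and miR-5105 4.16 with detection in 2. Entries on both sides of the limit thus lay at like levels.

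The RefSeq (GRCm38.p6) set used here held the mature sequence of 232 of the 282 members. The other 50 had none in that set, which does not show that RefSeq lacks it. The sequences below belong to the seed families with the largest summed levels among members with a sequence. They are shown because family members differ outside the seed, which is in capitals, and in level. The 4 members of the miR-181 family share 1 seed, and miR-181d differed from miR-181b at 1 of 23 positions counted from the 5′ end.
miR-181a-5p: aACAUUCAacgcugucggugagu
miR-181b-5p: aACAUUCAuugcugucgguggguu
miR-181c-5p: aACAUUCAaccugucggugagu
miR-181d-5p: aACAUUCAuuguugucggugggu

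The next sequences are those of miR-205 and miR-191, which shared their seed with no other member, of miR-10b and miR-10a, which differed from each other at 1 of 23 positions, and of the miR-125 family, in which miR-351 differed from miR-125a at 14 of 24 positions and kept the seed.
miR-205-5p: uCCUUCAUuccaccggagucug
miR-191-5p: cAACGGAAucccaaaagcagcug
miR-10b-5p: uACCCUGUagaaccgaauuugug
miR-10a-5p: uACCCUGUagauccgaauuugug
miR-125a-5p: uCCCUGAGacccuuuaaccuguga
miR-125b-5p: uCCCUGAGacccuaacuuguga
miR-351-5p: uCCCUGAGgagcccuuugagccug

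The let-7 seed was the one with the most members, 9, of which the 2 highest, the only one starting with A and the lowest are shown, followed by the miR-92 and miR-99/100 families.
let-7c-5p: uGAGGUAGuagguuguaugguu
let-7a-5p: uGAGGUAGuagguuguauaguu
let-7d-5p: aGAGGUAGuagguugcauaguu
miR-98-5p: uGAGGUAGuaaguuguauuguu
miR-92a-3p: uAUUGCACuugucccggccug
miR-25-3p: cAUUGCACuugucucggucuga
miR-92b-3p: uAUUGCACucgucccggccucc
miR-99b-5p: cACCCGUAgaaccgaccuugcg
miR-99a-5p: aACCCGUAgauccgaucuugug
miR-100-5p: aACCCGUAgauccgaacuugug

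Hairpins are shown for 6 miRNAs on which the account of the arms turns, with the 5p and the 3p arm in capitals in that order. Mir205 is at chr1:193507463-193507530 (minus strand) and overlaps an exon of the lincRNA 4631405K08Rik, and its 5p arm was the far higher one. Mir27b is at chr13:63300712-63300784 on the plus strand, within an exon of the protein-coding gene 2010111I01Rik, and its 3p arm was higher. Mir181a-1 is at chr1:137966455-137966541 on the plus strand in an intron of Gm4258, and Mir181a-2 at chr2:38852735-38852810 on the plus strand outside genes. Both make the same 5p arm and different 3p arms. Mirlet7d is at chr13:48536012-48536114 (minus strand), overlapping an exon of the lincRNA 6720427I07Rik, and Mir423 at chr11:77078064-77078172 (minus strand), within an intron of Nsrp1. The mean levels of their arms differed by less than 1 on the log2 scale.
Mir205: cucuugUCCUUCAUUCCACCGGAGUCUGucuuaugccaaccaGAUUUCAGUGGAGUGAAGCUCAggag
Mir27b: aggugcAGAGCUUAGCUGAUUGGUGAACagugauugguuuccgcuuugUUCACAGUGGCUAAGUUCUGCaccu
Mir181a-1: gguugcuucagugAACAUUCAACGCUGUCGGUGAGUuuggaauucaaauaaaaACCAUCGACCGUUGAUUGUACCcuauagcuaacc
Mir181a-2: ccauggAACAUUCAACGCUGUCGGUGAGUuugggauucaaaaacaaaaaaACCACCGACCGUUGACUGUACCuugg
Mirlet7d: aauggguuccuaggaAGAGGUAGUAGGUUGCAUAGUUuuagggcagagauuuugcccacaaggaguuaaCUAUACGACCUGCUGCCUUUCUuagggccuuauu
Mir423: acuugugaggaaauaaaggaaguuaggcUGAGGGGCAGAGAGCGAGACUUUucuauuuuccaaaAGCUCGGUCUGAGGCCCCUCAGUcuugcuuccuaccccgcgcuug

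In the order of mean level, 3 miRNAs stood at the top of CHR. miR-181a-5p, known for its part in lymphocyte development, was at 17.37 in mouse 2, 18.47 in mice 3, 7, 8 and 9, and 16.15 in mouse 10, a mean of 17.90 ± 0.96 (SD, n = 6). miR-205-5p, the epithelial miRNA of the basal epidermis, was at 18.47, 17.97, 17.71, 17.97, 17.71 and 17.37 in mice 2, 3, 7, 8, 9 and 10, a mean of 17.87 ± 0.37 (SD, n = 6). miR-191-5p, which is present in most tissues, was at 16.99, 17.71, 17.97, 17.71, 17.37 and 18.47 in the same order of mice, a mean of 17.71 ± 0.51 (SD, n = 6). Each of the 3 held the first place in at least 1 mouse. miR-181a-5p led in mice 3, 7, 8 and 9, miR-205-5p in mouse 2 and miR-191-5p in mouse 10. Their order was not separable by the spread between mice, as miR-181a-5p was above miR-205-5p in 4 of 6 mice with a mean difference of 0.03 ± 0.93 (SD), and miR-205-5p was above miR-191-5p in 4 of 6.

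The next places went to miRNAs with quite different known sources. miR-486-5p, which is abundant in erythrocytes and muscle, and miR-3107-5p had the same value in every library, 17.84 in mouse 2, 17.18 in mice 3 and 8, 16.90 in mice 9 and 10 and 16.69 in mouse 7, so the pair is treated as a single measurement. miR-10b-5p, whose hairpin at chr2:74726070-74726137 lies in introns of Hoxd3 and Hoxd4, was at 15.56 in mouse 2, 16.37 in mouse 3, 17.37 in mouse 7, 16.80 in mouse 8 and 17.97 in mice 9 and 10. It therefore moved from the 13th place in mouse 2 to the 2nd in mice 9 and 10. miR-125a-5p averaged 16.88 ± 0.44 (SD, n = 6) and lay between 16.59 and 16.99 in 5 mice and at 17.71 in mouse 10. miR-92a-3p, which is made from the miR-17~92 transcript and from another locus, averaged 16.28 ± 0.36 (SD, n = 6).

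miR-99b-5p and miR-30d-5p followed at 15.999 ± 0.40 and 15.99 ± 0.35 (SD, n = 6), and miR-99b-5p was the higher in 2 of 6 mice. miR-10a-5p averaged 15.74 ± 0.80, and miR-133a-3p, a miRNA of striated muscle, 15.63 ± 0.19 (SD, n = 6). let-7c-5p stood at 15.60 ± 0.55, miR-26a-5p at 15.40 ± 0.49, miR-27b-3p at 15.18 ± 0.14 and miR-182-5p, of the miR-183 sensory and epithelial cluster, at 14.99 ± 0.33 (SD, n = 6). The first 20 were completed by miR-378a-3p at 14.91 ± 0.39, miR-22-3p at 14.85 ± 0.65, let-7a-5p at 14.77 ± 0.68 and miR-222-3p at 14.70 ± 0.27 (SD, n = 6). No pair of neighbours among these 20 kept its order in all 6 mice: the upper one was above the lower in 2 to 5 of 6, apart from the identical pair. Neighbours in the order thus did not differ beyond their spread. The membership was steadier than the order, since 13 miRNAs were among the first 20 of every library and 24 among those of any.

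**Figure D1:**
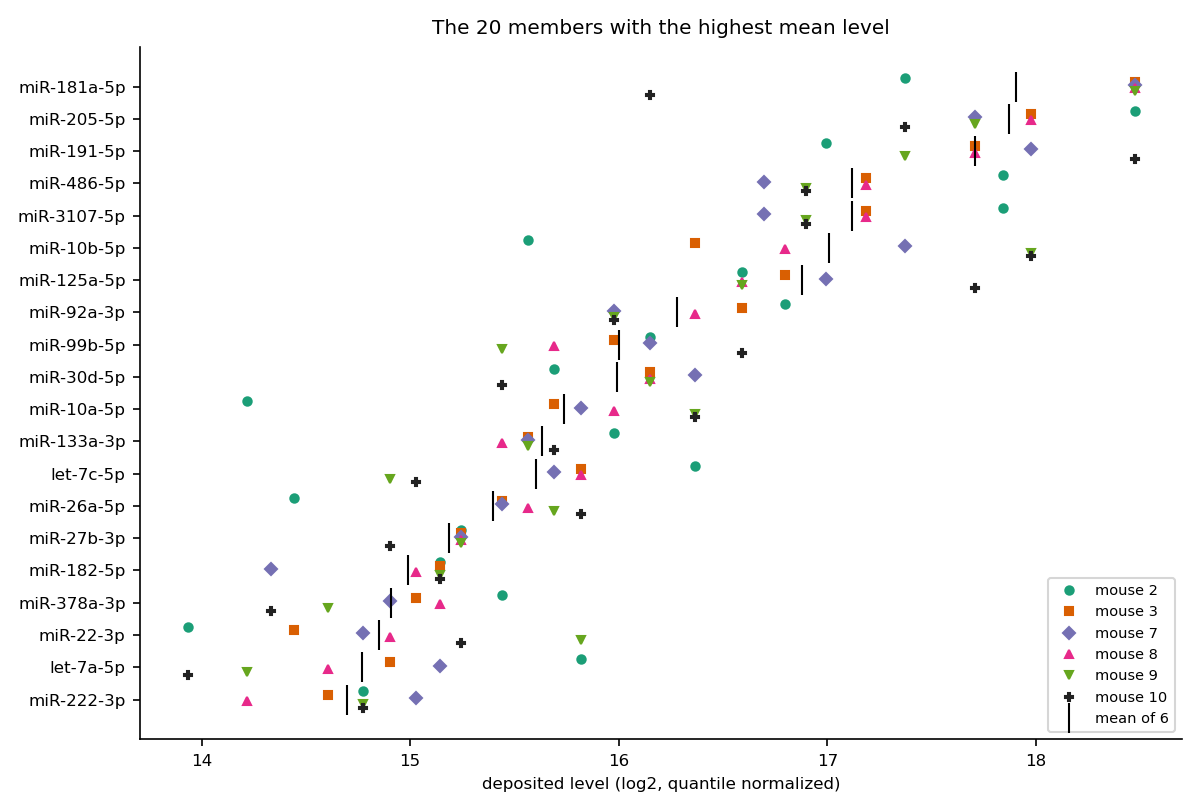
Deposited level (log2, horizontal axis) of the 20 members with the highest mean, 1 symbol for each of the 6 mice and a bar for the mean. miR-181a-5p reaches 18.47 in 4 mice and 16.15 in mouse 10, and miR-10b-5p runs from 15.56 to 17.97, while the points of miR-27b-3p lie between 14.90 and 15.24.

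Taken out of the log2, the levels were concentrated in few miRNAs. The 10 highest held 65.4% of the summed linear level of all members, the 20 highest 82.7%, the 50 highest 95.4% and the 100 highest 99.1%. The share of the 10 highest ran from 64.8% to 66.9% between the mice. The quantile normalization gives every library almost the same set of values, and values at the same place in the order differed by at most 0.287 between libraries over the first 200 places. The linear values no longer add up to what a ppm scale allows, so a share here is a share of normalized levels and not of reads. All shares are taken of a sum that holds both entries of pairs with identical values, such as miR-486-5p and miR-3107-5p.

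By seed, 150 of the 232 members with a sequence stood alone and 82 shared their seed with another member. Few families carried most of the level, and in most of them a single member carried the family. The miR-181 family held 12.4% ± 5.58 of the summed linear level (SD, n = 6), with 7.57% in mouse 2, 15.8%, 15.8%, 15.9% and 16.01% in mice 3, 7, 8 and 9, and 3.27% in mouse 10. miR-181a-5p made up 96.7% of it on average, while miR-181b-5p at a log2 level of 12.01, miR-181c-5p at 11.50 and miR-181d-5p at 9.32 made up the rest. All 4 members were lowest in mouse 10. Because of the quantile normalization, these values cannot show whether miRNA levels as a whole were lower in that mouse.

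miR-205 held 10.5% ± 2.83 (SD, n = 6), from 7.23% in mouse 10 to 15.5% in mouse 2, and miR-191 held 9.59% ± 3.43, from 5.56% in mouse 2 to 15.5% in mouse 10. The miR-10 family held 9.19% ± 4.72 (SD, n = 6) and, of the 10 largest seed families, had the largest SD in relation to its mean. Its share was 2.87% in mouse 2, 5.85% in mouse 3, 9.69% in mouse 7, 7.61% in mouse 8 and 14.6% in mice 9 and 10. miR-10b-5p and miR-10a-5p were both lowest in mouse 2 and highest in mice 9 and 10, while in mice 7 and 8 only 1 of the 2 was above its own median. They differ at 1 of 23 positions, and how reads matching both were counted is not given, so shared reads may add to their likeness. miR-10b-5p was between 61.5% and 75.3% of the family. The hairpin of miR-10a is at chr11:96317165-96317274, outside annotated genes, and that of miR-10b is in the Hoxd cluster, so the 2 miRNAs come from separate loci.

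The miR-125 family held 6.74% ± 2.34 (SD, n = 6), with 11.4% in mouse 10 and 5.29% to 6.73% in the other mice. miR-125a-5p was 79.3% of it, miR-125b-5p 15.9% and miR-351-5p 4.76%. In mouse 10, miR-125a-5p and miR-125b-5p stood above their medians and all 3 members of the miR-99/100 family did too, with a median deviation of 0.99, whereas miR-351-5p, encoded on the X chromosome, was at 12.30 against a mean of 12.65. miR-99b and miR-125a are neighbours in intronic sequence of Spaca6, where the mature arms of miR-99b span chr17:17830194-17830253 and the hairpin of miR-125a lies at chr17:17830812-17830879. let-7e is made from the same transcript and did not follow them, as let-7e-5p was lowest in mouse 10, at 10.68 against 12.12 in mouse 2.

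let-7, the large family that restrains proliferation in differentiated tissues, held 5.07% ± 1.78 (SD, n = 6). let-7c-5p was 44.1% of it and let-7a-5p 24.98%, followed by let-7b-5p at 10.8% and let-7f-5p at 7.10%, and miR-98-5p was 0.104%. The 8 members detected in all libraries moved together in 4 mice and were divided in mice 7 and 8. All 8 of 8 were above their own median in mouse 2, with a median deviation of 0.51, and 8 of 8 in mouse 3. In mouse 9 it was 0 of 8, and in mouse 10 it was 1 of 8, with a median deviation of -0.56. In mouse 7 it was 3 of 8 and in mouse 8 it was 4 of 8. let-7 and miR-10 thus ran in opposite directions across mice 2, 9 and 10. Some let-7 members, such as let-7c-5p and let-7a-5p, differ at 1 of 22 positions, so reads counted for both may add to their likeness. Of the other families, miR-92 held 3.78% ± 0.94, miR-99/100 3.06% ± 0.85, miR-26 1.95% ± 0.53 and miR-27 1.66% ± 0.13 (SD, n = 6). Members without a sequence in the RefSeq set used here held 22.4% of the level and enter no seed family. By name, miR-486-5p and miR-3107-5p each held 6.27% ± 1.97, the 5 miR-30 5p members 3.62% ± 0.80 and miR-133 2.18% ± 0.30 (SD, n = 6).

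**Figure D2:**
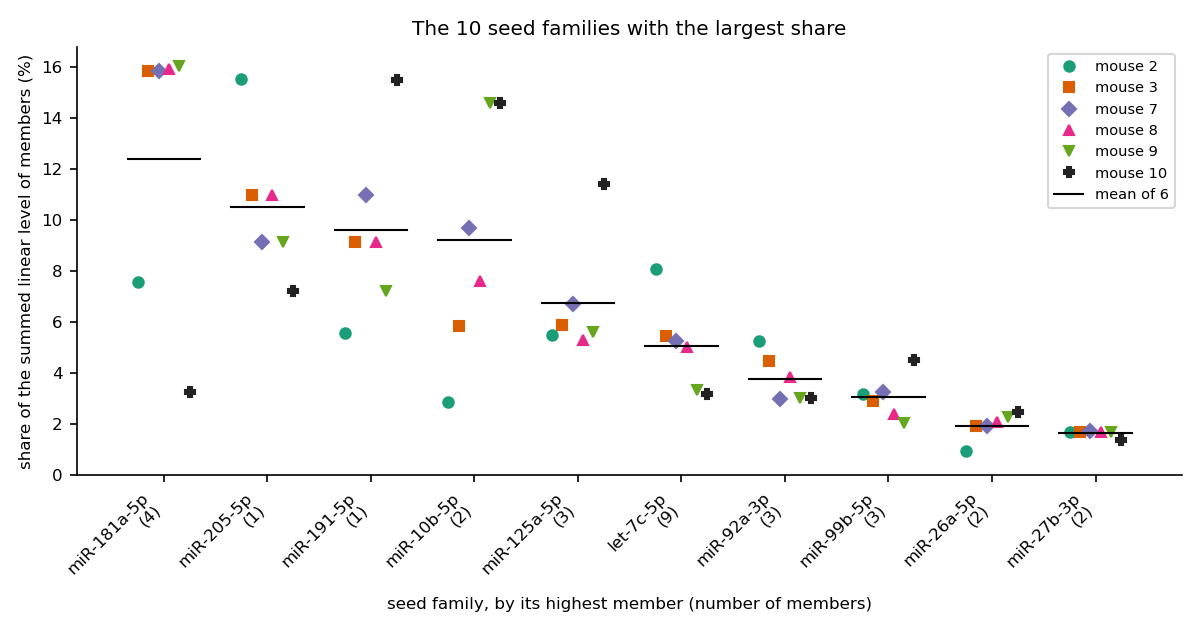
Share of the summed linear level of all members (%) held by the 10 largest seed families among members with a sequence. Families are named by their highest member with the number of members in brackets, symbols are the 6 mice and bars the means. The miR-181 family spans 3.27% to 16.01%, and the miR-10 family 2.87% to 14.6%.

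The members included miRNAs listed for epithelium, muscle, mesenchyme, blood and pigment cells. Of those listed for muscle and blood, miR-1a-3p, miR-155-5p and both arms of miR-144 were undetected in all 6 libraries. The levels come from bulk skin, in which fewer cells of a type and less RNA per cell cannot be told apart. Of 10 miRNAs listed for epithelium and keratinocytes, 9 were members, and together they held 12.5% of the summed level (9.85% to 17.6% between mice), of which miR-205-5p was 10.5% and miR-182-5p 1.41% of the summed level. miR-203-3p, which promotes exit from the cell cycle in the suprabasal epidermis, was at 11.82, 11.03, 11.91, 12.06, 12.58 and 12.96 in mice 2, 3, 7, 8, 9 and 10. miR-200b-3p averaged 11.29 ± 0.73, miR-200c-3p 10.34 ± 0.44, miR-429-3p 7.79 ± 0.76, miR-141-3p 7.53 ± 0.72 and miR-200a-3p 5.22 ± 1.57 (SD, n = 6), the last undetected in mice 3 and 7. miR-183-5p averaged 11.79 ± 0.76 (SD, n = 6), and miR-96-5p, the 1 listed miRNA that was no member, was detected in mouse 10 alone. Of this list, miR-205-5p and miR-203-3p, the miRNAs known for keratinocytes, were thus detected in all 6 libraries, but no other tissue was compared.

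Of 4 skeletal muscle miRNAs, 3 were members, and they held 2.19% (1.90% to 2.76%). miR-133a-3p was at 15.44 to 15.98, the 12th place, and its paralog miR-133b-3p averaged 6.26 ± 0.57 and miR-206-3p 6.54 ± 0.90 (SD, n = 6). miR-1a-3p, which is made from the same transcripts as miR-133a and is a defining miRNA of muscle, was undetected in all 6 libraries. All 6 listed miRNAs of fibroblasts and smooth muscle were members and held 1.19% (0.913% to 1.51%), with an identical pair counted as 2 entries. Among them, miR-143-3p averaged 13.60 ± 0.28, miR-145a-5p 12.34 ± 0.73 and miR-214-3p 12.28 ± 0.16 (SD, n = 6), whereas miR-199a-3p and miR-199b-3p had identical values in every library and averaged 10.62 ± 0.43 (SD, n = 6).

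Of 7 leukocyte miRNAs, 5 were members with a summed share of 0.657% (0.441% to 0.893%). miR-150-5p, of mature lymphocytes, averaged 12.45 ± 0.40, miR-342-3p 12.45 ± 0.83, miR-146a-5p, a brake on inflammatory signalling, 11.04 ± 0.63, miR-223-3p, of neutrophils, 9.10 ± 0.47, and miR-142-5p 8.59 ± 0.998 (SD, n = 6). miR-155-5p was undetected in all 6, and miR-142-3p was detected only in mouse 8, at 3.82. Of 5 erythroid miRNAs, 3 were members. The measurement that miR-486-5p and miR-3107-5p share, counted once, was 6.27% of the summed level (4.52% to 10.01%), miR-451a averaged 5.51 and was undetected in mouse 7, and both arms of miR-144 were undetected throughout. The endothelial miR-126-3p averaged 8.31 ± 0.48 and miR-126-5p 6.69 ± 0.96 (SD, n = 6), together 0.0193%. For pigment cells, miR-204-5p averaged 9.47 ± 0.21 and miR-211-5p 7.33 ± 0.60 (SD, n = 6).

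Of 12 miRNAs listed for other tissues, 2 were members. These were miR-128-3p, listed for brain, at 8.52 ± 0.40, and miR-375-3p, listed for endocrine and Merkel cells, at 6.53 ± 0.67 (SD, n = 6). Those of liver (miR-122-5p), heart (miR-208a-3p and miR-208b-3p) and embryonic stem cells, and miR-124-3p, miR-9-5p and miR-7a-5p, were undetected in all 6 libraries.

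miRNAs cut from the same transcript stood at very different levels. The RefSeq set used here placed members in 186 hairpins on 19 chromosomes, and hairpins missing from that set are not counted. Of the 186, 77 lay in 30 clusters with gaps of at most 10000 bases. Of all 186, 133 were within a gene on the same strand in GENCODE vM21, 45 of them overlapping an exon and 88 in introns alone. In the miR-17~92 cluster at chr14:115043671-115044506 in the Mir17hg transcript, miR-92a-3p averaged 16.28, miR-18a-3p 7.40, miR-92a-1-5p 7.29 and miR-17-5p 6.78, while miR-20a-5p was detected in 2 libraries and miR-19b-3p in 1. Since miR-92a-3p also comes from a second hairpin at chrX:52741838-52741928, its level is the sum of 2 loci.

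In the cluster of miR-183, miR-96 and miR-182, miR-182-5p averaged 14.99 and miR-183-5p 11.79, and miR-96-5p between them on the transcript was detected in 1 library. In the cluster of miR-200b, miR-200a and miR-429 at chr4:156053905-156055750, miR-200b-3p averaged 11.29, miR-429-3p 7.79 and miR-200a-3p 5.22. The pair of miR-23b and miR-27b gave miR-23b-3p at 13.72 ± 0.34 and miR-27b-3p at 15.18 ± 0.14, and the paralogous pair gave miR-23a-3p at 12.80 ± 0.27 and miR-27a-3p at 10.55 ± 0.36 (SD, n = 6). The order of the 2 products was thus reversed between the paralogous transcripts. miR-222-3p averaged 14.70 and its neighbour miR-221-3p 11.40. In the miR-106b~25 cluster, within Mcm7, where the hairpin of miR-106b is intronic and those of miR-93 and miR-25 overlap exons, miR-25-3p averaged 12.07, miR-93-5p 11.01 and miR-106b-3p 8.82, and miR-106b-5p was detected in 2 libraries.

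Some neighbours were closer together. miR-143-3p at 13.60 and miR-145a-5p at 12.34, which mark contractile and stromal cells, were closer than miR-214-3p at 12.28 and miR-199a-3p at 10.62. miR-15b-5p averaged 11.73 and miR-16-5p, which is also made from another locus, 12.59. miR-193b-3p averaged 12.22 and its neighbour miR-365-3p 9.50, whereas miR-191-5p at 17.71 stood far above miR-425-5p at 10.15, its neighbour in the same transcript.

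In the Dlk1-Dio3 imprinted locus on chromosome 12, 15 members with a RefSeq position came from 14 hairpins, and members without a position are not counted. miR-127-3p at 13.37 ± 0.27 and miR-434-3p at 9.40 ± 0.61 (SD, n = 6) led them, with 9 of the 15 below a mean of 5.10. Of the 5 highest of these 15, each was lowest in mouse 10.

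**Figure D3:**
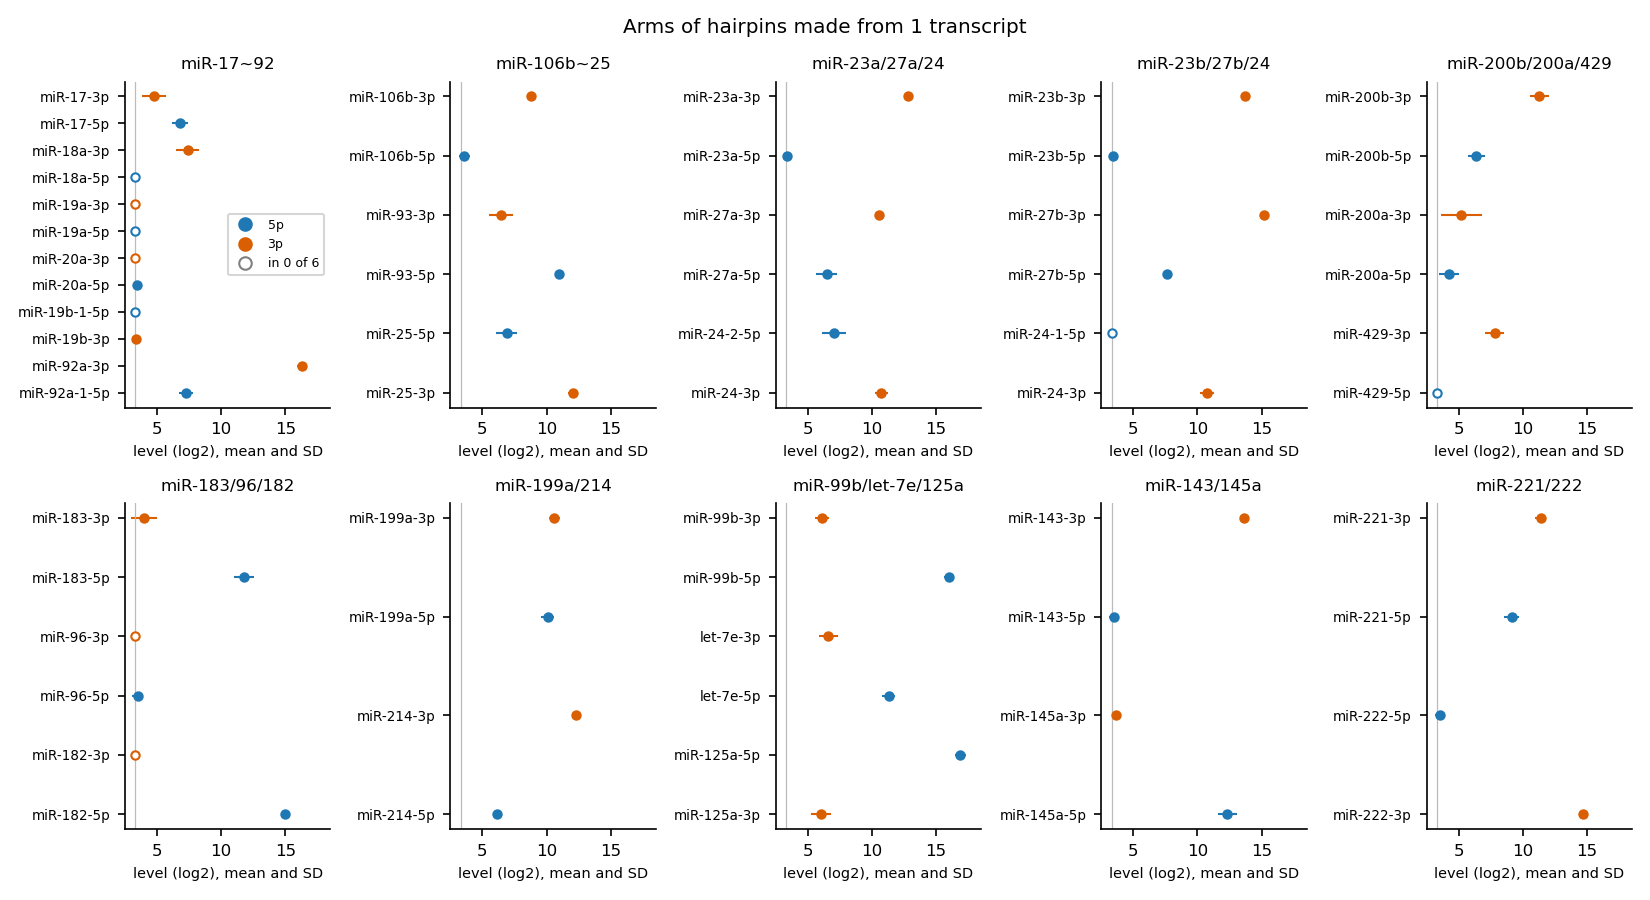
Mean level (log2, horizontal axis, with SD over 6 mice) of every listed arm of 10 groups of hairpins made from 1 transcript, 5p arms in blue and 3p arms in orange; open circles are arms detected in 0 of 6 libraries, and the grey line is the lowest value of the table. miR-92a-3p at 16.28 stands far from the other arms of its cluster, and miR-96-5p lies near the lowest value between miR-183-5p and miR-182-5p.

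The spread between the 6 mice was small against the range of levels. The SD of a member had a median of 0.575 over all 282, 0.519 over the 198 detected in all libraries and 0.817 over the other 84, where values at the lowest level enter the SD. It had a median of 0.782 below a mean level of 6 and of 0.669 between 6 and 8, and of 0.417 to 0.488 in the bands above 8. Of the 198, 92 had an SD below 0.5 and 6 an SD above 1. Across members, the libraries correlated pairwise with Spearman's rho of 0.931 to 0.971, median 0.945 over 15 pairs, a description over miRNAs that are not independent and that share the normalization. Mouse 10 was the least like the others, with a mean rho of 0.936, and mouse 8 the most, with 0.957. Mouse 10 gave the highest value of 50 and the lowest of 57 of the 198 miRNAs, mouse 2 those of 48 and 44, and mouse 3 those of 19 and 13.

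Among the 198 miRNAs detected in all libraries, the steadiest were mostly abundant. miR-27b-3p was at 15.24 in 5 mice and 14.90 in mouse 10, an SD of 0.14. Because the normalization gives the libraries almost the same set of values, an equal value can mean an equal place in the order and not an equal amount. miR-214-3p, of dermal mesenchyme, lay between 12.12 and 12.50 (SD 0.16, n = 6), miR-133a-3p between 15.44 and 15.98 (SD 0.19), and miR-423-3p between 13.77 and 14.33 (SD 0.19). The other 6 of the 10 smallest SDs belonged to miR-103-3p, let-7f-5p, miR-204-5p, miR-30a-3p, miR-615-3p and miR-532-5p, from 0.19 to 0.24. The 10 thus included miR-133a-3p, listed for muscle, and miR-204-5p, listed for pigment cells, but the other members of those lists spread more, with SDs of 0.90 for miR-206-3p, 0.57 for miR-133b-3p and 0.60 for miR-211-5p.

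Among the 198 miRNAs detected in all libraries, the widest spread was that of miR-34c-5p, a p53 target known for cell cycle arrest, which was at 7.82, 7.34, 6.83, 8.63, 7.88 and 4.26 in mice 2, 3, 7, 8, 9 and 10 (SD 1.52). Mouse 10 had the lowest value, but its gap to the nearest mouse stayed below Dixon’s critical value for a single far mouse. Of the members undetected in some library, miR-540-3p, miR-421-3p and miR-200a-3p had larger SDs, 1.76, 1.61 and 1.57, into which the lowest value enters. miR-6243 was at 13.10 in mouse 8 and between 9.52 and 10.89 in the others (SD 1.20, n = 6). miR-410-3p, of the Dlk1-Dio3 locus, ran from 5.10 in mouse 10 to 8.08 in mouse 8 (SD 1.14), and miR-1839-5p from 5.01 in mouse 10 to 8.05 in mouse 9 (SD 1.14). miR-142-5p, of leukocytes, was lowest in mouse 2 at 6.98 and highest in mouse 10 at 9.70 (SD 0.998), and miR-196a-5p, whose hairpins lie in the Hox loci, ran from 5.01 in mouse 2 to 7.66 in mouse 7 (SD 0.99). The remaining 4 of the 10 widest among the 198 were miR-5107-5p, miR-340-5p, miR-500-3p and miR-6406, with SDs of 0.98 to 1.22 and mean levels of 4.69 to 6.24. Among the 20 highest miRNAs, miR-181a-5p, miR-10b-5p and miR-10a-5p had the largest SDs, at 0.96, 0.95 and 0.80, all above the median SD of 0.420 of members with a mean above 14.

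The deviation of a library from the median moved with base composition in some mice. Over 165 members with a sequence and detection in all libraries, the deviation correlated with the GC content of the mature sequence at a Spearman rho of 0.28 in mouse 2 and of -0.31 in mouse 9, and of -0.25 to 0.16 in the other 4. These are descriptions across miRNAs that share a library, and their part in the spread was not tested.

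**Figure D4:**
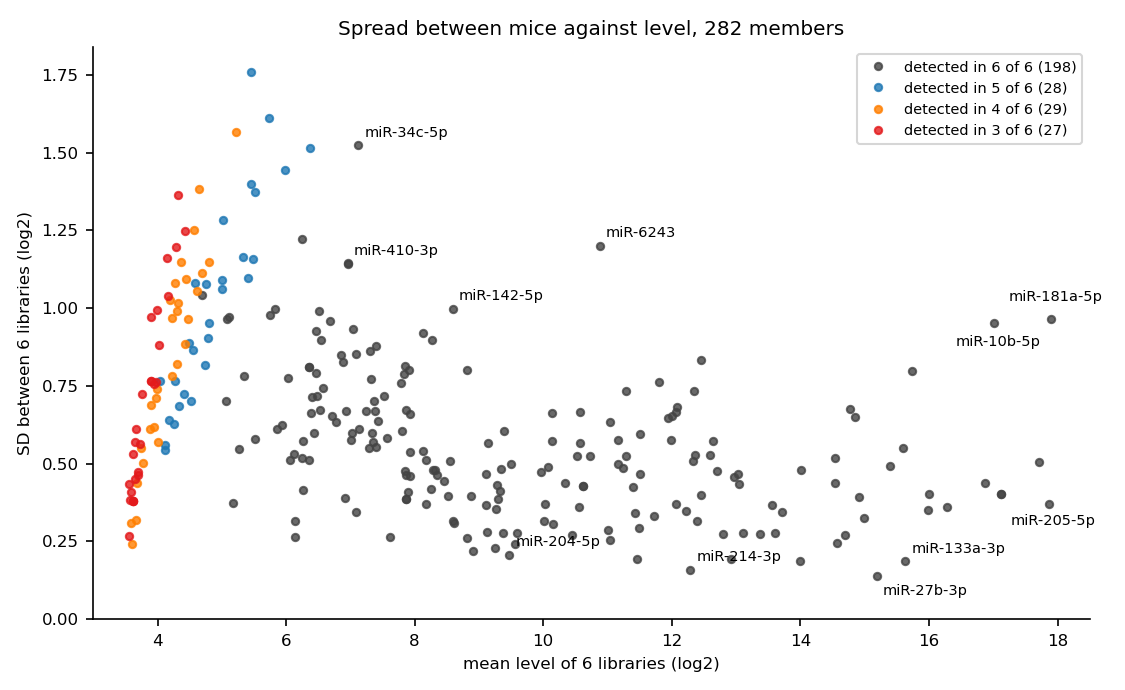
SD between the 6 mice (log2, vertical axis) against mean level (log2, horizontal axis) of 282 members, coloured by the number of libraries with detection. The SD of miR-27b-3p is 0.14 and that of miR-34c-5p 1.52, and members detected in 3 to 5 libraries have means of 6.37 or less.

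Both arms were members for 76 hairpins, and in most of them 1 arm was far above the other. The question was which arm of a hairpin had the higher deposited level in CHR. It was tested on the difference of the log2 levels of the 5p and 3p arms within each library. The test was limma, 2-sided, with Benjamini-Hochberg adjustment over the 76. The SE given with a difference is that of limma, which draws the variance of each hairpin towards a value shared by all 76. It is therefore not the SE of the differences of that hairpin alone. A constant difference in how well the 2 sequences were captured and counted would enter this test in the same way and was not measured. The 5p arm was higher in 35 (46.1%) and the 3p arm in 31 (40.8%) at an adjusted p under 0.05, and 10 were not called. The direction was the same in all 6 mice for 64 hairpins, 33 towards 5p and 31 towards 3p. The absolute difference had a median of 4.37 on the log2 scale and was over 1 in 62 hairpins, over 3 in 51 and over 6 in 24. For 12 of the 76, 1 arm is shared with another hairpin and sums their products: 6 of these were called towards 5p and 5 towards 3p, against 29 and 26 of the 64 with arms of their own. In 32 of the 76, an arm was undetected in at least 1 library, and the difference then depends on the lowest value.

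Towards the 5p arm, the difference was largest for miR-205. Its 5p arm lay between 17.37 and 18.47 and its 3p arm was at 6.71, 6.59, 6.17, 8.02, 7.45 and 6.70 in mice 2, 3, 7, 8, 9 and 10, a difference of 10.93 ± 0.30 (SE, n = 6, limma adjusted p = 1.21e-11). miR-125a differed by 10.85 ± 0.30 (SE), miR-146b, a regulator of inflammatory signalling, by 10.51 ± 0.29, miR-181a-1 by 10.10 ± 0.43, miR-99b by 9.88 ± 0.32 and miR-744 by 9.49 ± 0.25 (SE, n = 6). The hairpins miR-486 and miR-3107 differed by 8.99 and 8.84 and are a single measurement at the 5p arm. miR-145a differed by 8.67 ± 0.32 and miR-21a, raised in many inflamed and proliferating tissues, by 8.46 ± 0.25 (SE, n = 6). However, the 3p arm of miR-21a was detected in 3 of 6 libraries and that of miR-145a in 4.

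Towards the 3p arm, the widest difference was that of miR-133a. The 3p arm was at 15.44 or above in every mouse and the 5p arm at 3.89, 3.32, 3.32, 3.69, 4.44 and 3.39 in mice 2, 3, 7, 8, 9 and 10, a difference of -11.96 ± 0.25 (SE, n = 6, limma adjusted p = 3.83e-12), with the 5p arm undetected in mice 3 and 7. miR-203 differed by -7.76 ± 0.27, miR-27b by -7.56 ± 0.23, miR-193b by -7.41 ± 0.34 and miR-214 by -6.14 ± 0.24 (SE, n = 6). miR-92a-1 differed by -8.995 ± 0.24 (SE, n = 6) with the 3p arm shared with miR-92a-2. miR-615, of a Hox locus, differed by -5.67, miR-378a by -5.64, miR-676 by -5.39, miR-25 by -5.18, miR-434 by -5.17 and miR-148b by -4.97. The epithelial miR-200b differed by -4.90 and miR-141 by -3.92, and miR-365-1, miR-365-2, miR-674, miR-148a, miR-27a, miR-128-1, miR-1843b and miR-24-2 lay between -4.93 and -3.69. Some of these sizes depend on the lowest value, because the 5p arm was undetected in some mice. This held, among others, for miR-203 and miR-434 in mice 3 and 7 and miR-193b in mouse 7. It also held for miR-615 in mice 3, 7 and 9 and miR-141 in mice 3, 7 and 10.

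Some families kept the side of the higher arm between paralogs and others did not. All 5 miR-30 hairpins with both arms, miR-30a, miR-30b, miR-30c-1, miR-30c-2 and miR-30e, were called higher at 5p, by 4.07, 4.43, 6.69, 5.81 and 0.996. In miR-30e this held in 5 of 6 mice, with -0.16 in mouse 2, and it missed the threshold in the exact sign-flip permutation test (adjusted p = 0.0709). Both miR-27 hairpins were higher at 3p, as were both miR-148 hairpins. The related miR-152, however, was a member by its 5p arm alone, at 7.085, with its 3p arm detected in 2 libraries. In the miR-34 family, miR-34c was higher at 5p by 2.01. There, miR-34a was a member by its 5p arm alone and miR-34b by its 3p arm alone. The let-7 family was divided: let-7b, let-7e and let-7i were higher at 5p by 6.001, 4.71 and 7.31, whereas let-7d was higher at 3p by 0.69 ± 0.23 (SE, n = 6, limma adjusted p = 0.0142). The 3p arm of let-7d was at 13.33, 13.43, 13.43, 12.96, 12.79 and 12.24 and its 5p arm at 12.96, 12.72, 12.33, 12.50, 11.88 and 11.62 in mice 2, 3, 7, 8, 9 and 10. The 3p arm was thus the higher in all 6 mice, and at a rank of 32 it was above the 5p arms of let-7f, let-7i, let-7d, let-7e and let-7g. The shared 5p arm of miR-181a exceeded the 3p arm of miR-181a-1 by 10.10 and that of miR-181a-2 by 7.77, so the arms in which those hairpins differ averaged 7.80 and 10.13.

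A few abundant hairpins had arms of like level. For miR-423, the 5p arm was at 14.90, 14.03, 13.55, 14.03, 13.93 and 13.65 and the 3p arm at 14.33, 13.93, 13.93, 13.93, 13.77 and 14.03 in mice 2, 3, 7, 8, 9 and 10. The 5p arm was above in 4 mice and below in 2, with a mean difference of 0.03 ± 0.24 (SE, n = 6, limma adjusted p = 0.919), and both arms were among the first 25 miRNAs. miR-199a averaged 10.08 at 5p and 10.62 at 3p, a difference of -0.54 ± 0.24 (SE, n = 6, limma adjusted p = 0.054) that lay towards 3p in all 6 mice and passed without mouse 7 (limma adjusted p = 0.0459). miR-340 changed side between mice, from 3.25 towards 5p in mouse 7 to -1.80, towards 3p, in mouse 10, with a mean of -0.10 ± 0.60 (SE, n = 6), and its 3p arm was undetected in mice 3 and 7. miR-1843a, miR-212 and miR-5107 had mean differences of -0.0039, 0.15 and -0.16. Both arms of miR-5107 were detected in all 6 libraries, at means of 6.24 and 6.41, whereas those of miR-1843a and miR-212 were each undetected in at least 1.

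For 108 further hairpins with arms of their own, only 1 arm was a member, and the limit itself then fixes the direction. In 54 this was the 5p arm and in 54 the 3p arm, and the other arm was detected in 0 libraries for 80 of them. miR-191, miR-10b, miR-30d, miR-10a and miR-182 were present by their 5p arm, and miR-22, miR-222, miR-23b, miR-143 and miR-127 by their 3p arm, all with levels above 13.3. Counted over all members, 135 were named 5p and 139 named 3p, while among the 50 highest 30 were 5p and 19 were 3p.

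The higher arm more often began with U. Of 54 called hairpins with both sequences, the higher arm began with U in 34 and the lower arm in 5. The higher arm began with A in 9, with C in 9 and with G in 2, and the lower arm began with A in 21 and with C in 20. A 5′ U is known to be favoured by the Argonaute proteins that hold the kept arm. Over all members with a sequence, 41.4% of 232 began with U, against 64.1% of the 39 with a sequence among the 50 highest and 35.1% of 769 entries that were not members. The median length was 22 bases in all these sets, and the median GC content was 50% in the members and 47.8% in the 50 highest. These shares are descriptions without a test.

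**Figure D5:**
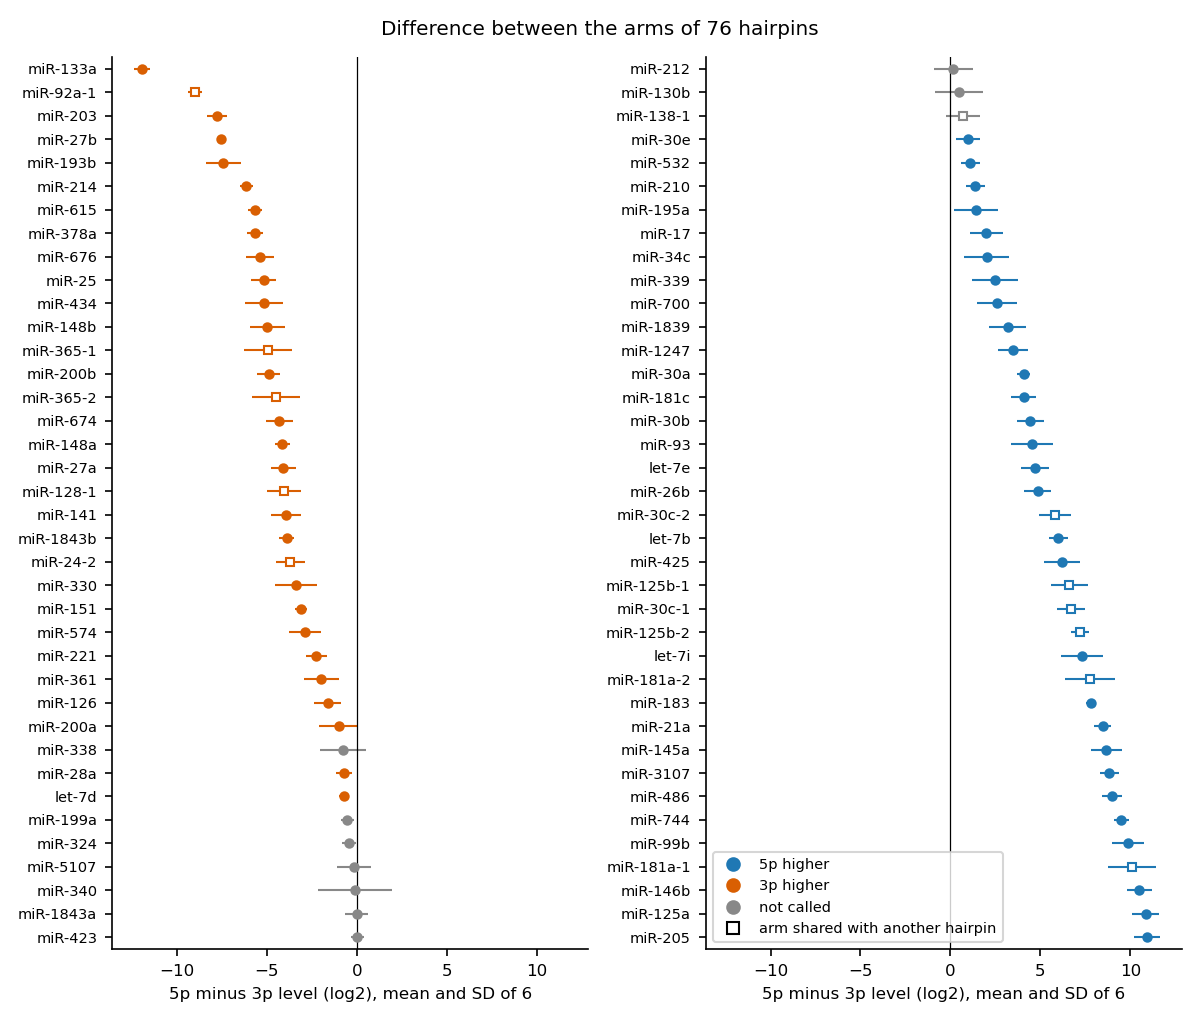
Difference between the 5p and 3p arms (log2, 5p minus 3p, mean and SD over 6 mice) of 76 hairpins, in blue where the 5p arm was higher, in orange where the 3p arm was, and in grey where neither was called; open squares are hairpins with an arm shared with another hairpin. The differences run from -11.96 for miR-133a to 10.93 for miR-205, with miR-423 at 0.03.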

How the data were processed

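Small RNA libraries of 6 CHR samples were used, and the other 12 libraries of the table were not read. The authors extracted RNA with TRIZOL, sequenced on the HiSeq, removed adapters and poor reads, assigned reads to miRBase entries by BLAST and expressed each as ppm. The deposited values are log2 levels, quantile normalized, with 10 ppm (3.32) as the lowest. These last steps were read from the values of the 6 CHR libraries, and over which libraries the normalization ran is not given. Tool versions are not given in the sources used here.

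Levels were averaged on the log2 scale and summed on the linear scale for shares. Arms were compared with limma 3.58.1 in R 4.3.3 (intercept-only fit on 5p minus 3p, eBayes), checked on simulated data. Its p-values and SEs use a variance drawn towards a value shared by the hairpins fitted, and they rest on the spread between these 6 samples only. Python 3.11.15, pandas 2.3.3, numpy 2.4.6, scipy 1.17.1 and matplotlib 3.10.9 were used. Sequences and positions are from the RefSeq GRCm38.p6 set used here, which covered 232 of 282 members, with host genes from GENCODE vM21.

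Named miRNAs are the 20 highest, members of the 5 largest seed families, the 10 widest and 10 smallest SDs among miRNAs detected in all 6 libraries, the 20 largest 3p and 10 largest 5p differences, the 5 nearest 0, the 5 highest detected in 3 libraries, and the 12 marker and the polycistron lists. Members and lists were chosen with earlier results of these data known. The exact sign-flip permutation test, other detection limits and leaving out each mouse were the alternatives.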

Additional observations from a re-analysis of the deposited data

Results flagged for a closer look

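Of 86 values examined for a single mouse far from the other 5, 12 had a gap to the nearest mouse that was large against the whole range (above Dixon’s critical value), and chance flags about 1 in 20. Mouse 10 was the far one in 6 of them. It stood high in miR-125a-5p (17.71, gap 0.639 of the range), miR-125b-5p (15.56, 0.709), miR-183-5p (13.26, 0.635), miR-145a-5p (13.77, 0.701) and in the share of the miR-125 seed family (11.4%, 0.764), which repeats the first 2. It stood low in miR-27b-3p (14.90), where the gap was the whole range, 1, because the other 5 mice had the same value.

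Mouse 2 stood low in miR-10a-5p (14.22, 0.685) and miR-26a-5p (14.44, 0.723). Mouse 7 stood low in miR-182-5p (14.33, 0.857) and in miR-98-5p (0.820), which was undetected there, in the library with the fewest entries detected, 200. Mouse 3 stood low in miR-429-3p (6.34, 0.674) and mouse 9 in miR-150-5p (11.67, 0.687).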

How the results depend on the processing

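No paired analysis was possible because the 6 libraries form a single group and no groups were compared; the arms were compared within each library. The number of miRNAs was 282 and between 198 and 361 for detection in all or in at least 1 of the 6 libraries. Without each mouse in turn it was 259 to 282, the share of the 10 highest 65.1% to 65.99%, the share of the miR-181 family 11.7% to 14.2%, the median SD 0.524 to 0.606 and the median rho 0.938 to 0.954. The normalization gives every library almost the same set of values, so the share of the 10 highest had little room to change. With Pearson's r in place of Spearman's rho the median between libraries was 0.962 instead of 0.945. With both arms required in all 6 libraries, 44 hairpins were left, of which 22 were higher at 5p and 19 at 3p, since fewer hairpins were tested. The exact sign-flip test, whose smallest p is 0.03125, called 33 and 31. It left out miR-30e and miR-195a, which were higher at 5p in 5 of 6 mice. Its calls towards 3p left out miR-200a, both of whose arms were undetected in mice 3 and 7, and included miR-199a, which limma had not called.

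Without each mouse in turn, 35 to 36 hairpins were higher at 5p and 30 to 32 at 3p, and 64 of the 66 called hairpins kept call and direction. The exceptions were miR-200a (limma adjusted p = 0.0243, and 0.0928 without mouse 9 and 0.0734 without mouse 10) and miR-28a (0.0165, and 0.0801 without mouse 8). miR-338, miR-199a and miR-138-1 passed without mouse 3, 7 and 2, at 0.0051, 0.0459 and 0.0271, and missed the threshold with all 6. miR-199a also passed with both arms required in all libraries (0.0339) and with a trend on the mean level (0.0258), and miR-338 with undetected values at the lowest detected value (0.0236). No difference changed sign in a called hairpin. Depth was unknown, and undetected values in mouse 7 limit miRNAs below 5.77.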
